A study of Homo sapiens with 16 samples.

Results

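The libraries described are those of a U2OS-TR line that makes ΔN-RNMT when doxycycline is added, 10 of the 16 libraries of the study, chosen by the sample descriptions that name them as control or induced. U2OS-TR is an osteosarcoma line that carries the tetracycline repressor. ΔN-RNMT is a truncated cap methyltransferase made catalytically inactive by mutation of its S-adenosylmethionine site, carries a FLAG tag and the nuclear export signal of HIV Rev, and is driven by a CMV promoter with tetracycline operators. Both groups carry this transgene and come from 1 clone, which was picked for its strong expression, so that a feature of this clone and a feature of the transgene cannot be told apart. The 5 uninduced and the 5 induced cultures were grown for 48 h after splitting, and the induced cultures then received 1 µg/ml doxycycline for 24 h. The protocol recorded with the libraries lists doxycycline for all of them, whereas the design text and the paper give it to the induced cultures only, and the latter was followed here. The 6 other libraries are of the parental U2OS-TR line, 3 without and 3 with the same doxycycline treatment, and carry no transgene. Nuclei were removed before RNA was purified, and the libraries hold tags from the 3′ ends of polyadenylated cytoplasmic RNA.

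The 5′ cap of an mRNA is a guanosine joined to the first transcribed base and methylated at the N7 position by RNMT, which is helped by its activator RAMAC. The methylated cap is bound by eIF4E when translation starts and protects the mRNA from 5′ exonucleases, and uncapped or unmethylated ends can be decapped and degraded. A cytoplasmic complex, in which the adapter protein NCK1 joins the capping enzyme to a 5′-monophosphate kinase, can restore caps on some mRNAs, and inactive RNMT in the cytoplasm was built to block the methylation step of this recapping. The question for these libraries is which mRNAs become less or more abundant in the cytoplasm when the inactive protein is made.

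The libraries held between 18991617 and 23251834 gene counts in the uninduced group and between 12527183 and 20781875 in the induced group. Levels are given as CPM, a gene's counts relative to all gene counts of its library, scaled between libraries with edgeR's TMM factors. The first principal component took 78.9% of the variance and did not follow the labels alone. Its score was -60.3, -73.3, -102, -45.3 and 33.9 for uninduced replicates 1 to 5 and 71.4, -13.5, 67.5, 57.4 and 63.8 for induced replicates 1 to 5. Uninduced replicate 5 therefore lay on the side of the induced libraries, and induced replicate 2 lay between the groups, below uninduced replicate 5. A like crossing of these libraries held when genes were ordered by the GC content of their whole canonical transcript. The GC content of the tags themselves was not computed. After each gene was set to its mean over the 10 libraries, the median log2 CPM of the GC-poorest of 5 equal tiers of genes minus that of the GC-richest tier was -0.55, -0.66, -0.78, -0.44 and 0.13 in the uninduced libraries and 0.78, -0.01, 0.59, 0.63 and 0.29 in the induced ones. The 10 most abundant genes took 17.2, 17.8, 18.7, 16.7 and 13.7% of the counts of the uninduced libraries and 11.6, 14, 11.4, 11 and 11.1% of those of the induced ones. RNA quality, sequencing lane or growth of these cultures is not given in the sources used here, and the part of any of them in this axis was not tested. Results are given below for all 10 libraries, with values from fits with offsets for GC content beside each group of genes. Of 10 mesenchymal markers, 8 had a median above 1 CPM, whereas COL1A2 had a median of 0 and TWIST1 was at 0 in all 10 libraries. Of 15 markers of blood, epithelium, liver, endothelium, muscle, neurons and islets, EPCAM alone had a median above 1 CPM, with a range of 4.63 to 15.8 CPM. The summed level of the mesenchymal markers was 750 to 1220 CPM in the uninduced and 1060 to 1600 CPM in the induced libraries, and that of the markers of other cell types 5.68 to 13.2 and 8.32 to 20.2 CPM.

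**Figure D1:**
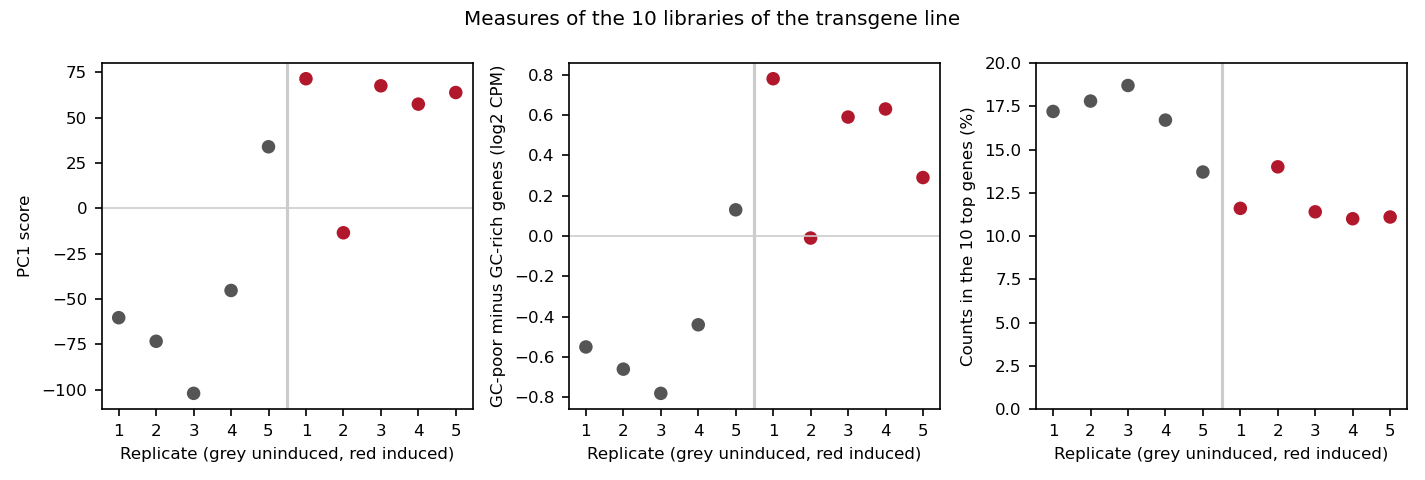
Score on the first principal component (left), median centred log2 CPM of the GC-poorest tier of genes minus the GC-richest tier (middle) and percent of gene counts in the 10 most abundant genes (right), for each of the 5 uninduced (grey) and 5 induced (red) libraries, with the replicate number on the x axis. Uninduced replicate 5 and induced replicate 2 lie closest to the other group on each measure and cross there, at 13.7% and 14% on the third.

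RNMT itself was the check of the labels. Its level was 66.2, 55.6, 62.7, 74.6 and 112 CPM in the uninduced libraries and 278, 360, 266, 458 and 368 CPM in the induced libraries. All induced libraries lay above all uninduced ones (log2 fold change 2.22 ± 0.23 (SE), adjusted P = 0.00805; edgeR, quasi-likelihood F test, adjusted by the method of Benjamini and Hochberg). Counts per gene do not show which RNMT tags came from the transgene and which from the endogenous gene. Whether the counting used strand is not given in the sources used here, so tags of genes that overlap a neighbour, as RNMT does FAM210A on the opposite strand, cannot be told apart from those of the neighbour. Of the 168 genes named by rule or chosen besides, 68 overlap another annotated gene on the same strand and 89 on the opposite strand. Examples are TUBA1C with TUBA1A and the readthrough genes that share exons with RPS10, PABPN1, DNAJC25, JMJD7 and PLA2G4B. Among the 11 enzymes and partners of cap synthesis that were tested, 0 lower and 3 higher were called, and 2 lower and 2 higher with GC offsets. The other 2 called members were RAMAC, the activating subunit of RNMT, and NCK1, the adapter of the cytoplasmic capping complex. RAMAC was at 2.79, 3.39, 5.39, 3.53 and 4.86 CPM in the uninduced libraries and 9.99, 3.01, 7.99, 6.08 and 8.79 CPM in the induced libraries (log2 fold change 0.84 ± 0.31 (SE), adjusted P = 0.0478), and NCK1 was at 2.08, 1.34, 1.22, 1.84 and 3.38 CPM in the uninduced libraries and 7.16, 2.49, 6.47, 7 and 4.63 CPM in the induced libraries (log2 fold change 1.48 ± 0.35 (SE), adjusted P = 0.0175). In both, induced replicate 2 lay within the range of the uninduced libraries, and RAMAC was no longer called with GC offsets (adjusted P = 0.328). RNGTT, the capping enzyme, had a log2 fold change of -0.39 (adjusted P = 0.0729), and the cap-binding subunits NCBP1, NCBP2 and NCBP3 had values of -0.21, 0.25 and 0.25, none of them called. The 2′-O-methyltransferases CMTR1 and CMTR2 had log2 fold changes of 0.37 (adjusted P = 0.114) and 0.41 (adjusted P = 0.118).

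Of 13038 genes tested, 19.8% were called lower and 20.0% higher in induced cells at an adjusted P below 0.05. Scaling by total counts alone moved the median over all tested genes (log2 fold change) from 0.04 to 0.28 and the calls to 1401 lower and 4022 higher, against 2579 and 2604 with TMM, and changes are reported relative to TMM. Of the genes called, 858 lower and 814 higher ones were called in each of the 10 fits that left out 1 library, and 1367 and 1379 with GC offsets. With 1 surrogate variable in the fit, RNMT was the only gene called, so that no other call described below was kept, while the unadjusted P was below 0.05 for 4278 genes. A stricter description was the absence of overlap, in which the 5 induced libraries all lay outside the range of the 5 uninduced ones. All 5 induced libraries were below all uninduced ones for 550 genes (4.22% of those tested) and above them for 402 genes (3.08%). This count depended on the 2 libraries that stood toward the other group. Without uninduced replicate 5 it was 2873 lower and 3085 higher, and without induced replicate 2 it was 2038 and 2367. Of the genes without overlap, 490 lower and 359 higher were also called by the test, and 304 and 176 of these were called in the same direction with GC offsets. The median log2 fold change was -0.71 over the 550 genes and 0.73 over the 402, values that their selection fixed in sign.

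Abundance ordered the calls. Genes were divided into 5 tiers of equal size by mean log2 CPM over all 10 libraries. In the lowest tier, from 0.482 to 3.74 CPM, 291 genes were lower and 492 higher of 2608 tested. In the highest tier, from 58.7 to 31600 CPM, 873 genes (33.5%) were lower and 309 (11.8%) higher, and the median log2 fold change was -0.19. The share called lower rose through each tier, from 11.2 to 14.9, 17, 22.4 and 33.5%. The share called higher was 18.9, 25.1, 25.3, 18.8 and 11.8%, with its peak in the middle tiers. GC offsets kept this order, with 717 lower and 170 higher in the highest tier and 196 and 306 in the lowest. Scaling by total counts left 543 lower and 533 higher in the highest tier, so that lower calls no longer clearly outnumbered higher ones within it. In the lowest tier that scaling gave 120 lower and 713 higher. Lower calls thus stayed more frequent in the highest tier than in the lowest. The share of all counts in the highest tier was 85.3, 85.5, 85.2, 84.9 and 82.6% in the uninduced libraries and 79.3, 83.1, 79.5, 79.1 and 78.2% in the induced ones, with induced replicate 2 above uninduced replicate 5.

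Base composition ordered the calls more steeply. In the tier of genes whose canonical transcript had the lowest GC content, 27.8 to 40.7%, there were 72 lower (2.79%) and 985 higher (38.1%) of 2585. In the GC-richest of the 5 tiers, 58.2 to 76%, there were 1096 lower (42.4%) and 154 higher (5.96%). The offsets were built to remove this trend and left 365 lower and 292 higher in the poorest tier and 297 and 248 in the richest. The order by abundance was also present within tiers of GC content. Among GC-rich genes of the lowest abundance tier 20.4% were lower and 9.9% higher, and among GC-rich genes of the highest tier 61.6% were lower and 2.38% higher. GC-poor genes went from 2.54% lower and 35.6% higher in the lowest abundance tier to 6.91% and 26.4% in the highest. With GC offsets the GC-rich genes went from 14 lower and 57 higher in the lowest abundance tier to 112 and 25 in the highest, and the GC-poor ones from 35 and 68 to 109 and 19. Transcript length showed a weaker order, from 29.6% lower and 11.3% higher in the shortest tier to 9.75% and 24.8% in the longest, and with GC offsets from 515 lower and 201 higher to 310 and 291.

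**Figure D2:**
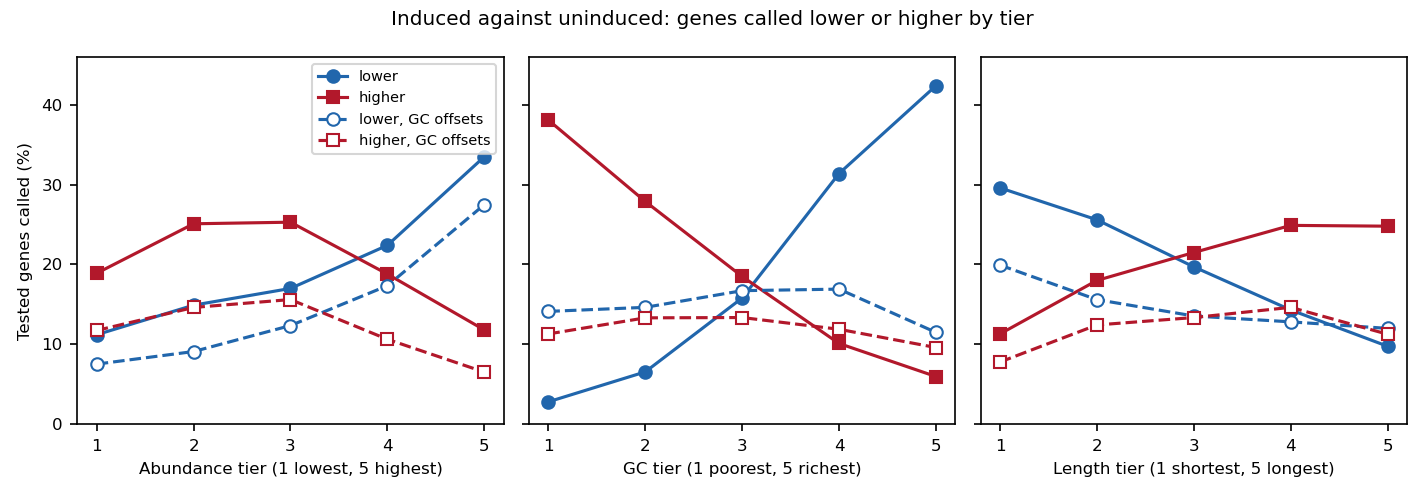
Percent of tested genes called lower (blue) or higher (red) in induced cells, by tier of abundance, of GC content of the canonical transcript and of its length, each with 5 tiers of 2584 to 2608 genes. Solid lines are the fit without and dashed lines the fit with GC offsets; the rise of lower calls with abundance stays with the offsets (717 lower of 2608 in the highest tier), and the slope along GC content does not.

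Gene class and chromosome also differed in their calls. Of 1017 long noncoding RNAs tested, 236 were lower and 78 higher, with a median log2 fold change of -0.22. With GC offsets these counts were 202 and 51. Of 11494 protein-coding genes, 2270 were lower and 2463 higher, and 1645 and 1443 with GC offsets. Chromosome 19, which is rich in genes and GC, had 297 lower and 68 higher of 891 genes, and chromosome 22 had 100 and 30 of 317. On the GC-poor chromosomes 4 and 13 the calls ran the other way, with 23 lower and 131 higher of 442 and 16 lower and 79 higher of 219. With GC offsets most of this difference was gone, with 137 lower and 91 higher on chromosome 19, 56 and 29 on chromosome 22, 50 and 51 on chromosome 4 and 23 and 32 on chromosome 13.

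Protein synthesis was the first functional group. Calls of the lists below are to be read beside the shares over all tested genes, 19.8% lower and 20.0% higher. Counts of list members without overlap are to be read beside 4.22% lower and 3.08% higher over all tested genes. In the shortest tier of transcript length 210 genes were lower and 24 higher without overlap, of 2585. Ribosomal proteins form the small and large subunits, and their mRNAs carry a 5′ terminal oligopyrimidine (TOP) motif that couples translation to growth signals. The small subunit list had 16 lower and 0 higher of 32 tested, with a median log2 fold change of -0.45 beside 0.04 for all genes, and 15 lower and 0 higher with GC offsets. The large subunit list was mixed, with 13 lower and 6 higher of 51 a median of 0.01 and 15 lower and 2 higher with GC offsets. With 1 library left out, called members numbered 8 to 18 lower and 0 to 2 higher for the small and 5 to 15 lower and 0 to 18 higher for the large subunit. All 8 small subunit and all 7 large subunit genes without overlap were lower. Small subunit mRNAs together took 13.4, 13.8, 12.7, 13.3 and 12.4% of the gene counts in the uninduced libraries and 10.5, 12.3, 10.4, 9.53 and 8.58% in the induced libraries. Large subunit mRNAs took 11.1, 11.1, 11, 11.4 and 11.3% of the gene counts in the uninduced libraries and 10.1, 10.5, 10.1, 9.54 and 9.7% in the induced libraries. The groups did not overlap in either share, though for the small subunit induced replicate 2 came close to uninduced replicate 5. The large subunit share leans on RPL27A, which went from 35900 ± 13000 to 18800 ± 1810 CPM (mean ± SD, n = 5 each). The share without RPL27A was not computed. Reads that fit more than 1 place were left out of these counts, and ribosomal protein genes have many processed pseudogenes, so levels of members with close copies are uncertain.

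Transcription starts with and without the motif are given below for some of the abundant genes described here. Those of the other abundant genes are not printed. The 30 bases of each, taken from RefSeq on GRCh38.p14 and written 5′ to 3′, begin 5 bases before the annotated start, and capitals mark a C at the start followed by at least 4 pyrimidines, with the whole run.
RPL27A, chr11:8682787-8682816, forward strand: ccttcCTTTTTCgtctgggctgccaacatg
RPS12, chr6:132814564-132814593, forward strand: gaggcCTCTTTCCCTgccgccgccgagtcg
RPS10, chr6:34426045-34426074, reverse strand: tccttCCTTTCCagccccggtaccggaccc
RPS3, chr11:75399513-75399542, forward strand: cacttCCTTTCCTTTCagcggagcgcggcg
EEF2, chr19:3985439-3985468, reverse strand: gcgttCTCTTCCgccgtcgtcgccgccatc
KDELR1, chr19:48391527-48391556, reverse strand: tccctCTTCCCggctccagctccgccgcca
SUMO3, chr21:44818038-44818067, reverse strand: cgcgcacagttgcggcgggagagcggcggg
NONO, chrX:71283630-71283659, forward strand: gtctcgtttccggcggtcgcgcgctctttt
RBM17, chr10:6089029-6089058, forward strand: ccggcagcccgcgctccctgaccccgcgcc
The last 3 have no such run at the annotated start. Among 9917 tested genes with a start in the table, 5.46% began with it, and in the highest abundance tier 8.87%. Of all 27305 promoters 4.04% began with this run. It was present in 68% of the 25 small subunit and 61.9% of the 42 large subunit genes matched, in 6.47% of genes called lower, in 4.26% of those called higher, in 9.9% of the genes without overlap on the lower side and in 2.86% on the higher side. Of all tested genes that began with it, 126 were lower and 87 higher of 541 (98 and 50 with GC offsets), and the median log2 fold change was 0.01, beside 0.07 for the other matched genes. A window of 10 bases either side of the start held a run in 34.2% of lower and 33.1% of higher genes, and 34% of all tested genes.

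RPL27A, a large subunit protein and the most abundant gene called lower without overlap, was at 32900, 35600, 57300, 31600 and 22000 CPM in the uninduced libraries and 18500, 21800, 17200, 18900 and 17500 CPM in the induced libraries (log2 fold change -0.93 ± 0.23 (SE), adjusted P = 0.0177). Uninduced replicate 5 was the lowest of its group and exceeded induced replicate 2 by a narrow margin. RPS12 of the small subunit was at 11000, 11900, 11700, 11200 and 9460 CPM in the uninduced libraries and 7030, 9290, 7030, 6080 and 3200 CPM in the induced libraries (log2 fold change -0.76 ± 0.24 (SE), adjusted P = 0.0303). Induced replicate 5 was lowest and induced replicate 2 highest of the induced libraries. RPL8 and RPS10 also fell without overlap, with log2 fold changes of -0.86 and -0.45, and RPS20 and RPSA with -0.55 and -0.54. RPS3, RPS4X and RPS15 fell (log2 fold changes -0.97, -1.28 and -1.23), but their groups overlapped. Called members that rose were all of the large subunit. RPL23 went from 828 ± 461 to 1550 ± 255 CPM (mean ± SD, n = 5 each), and its uninduced replicate 5 stood at the level of the induced libraries. RPL8, RPS10 and RPL23 were no longer called with GC offsets, with log2 fold changes of -0.38, -0.30 and 0.67.

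The factors that work with the ribosome came next. Initiation factors had 6 lower and 10 higher of 49 tested (8 lower and 4 higher with GC offsets, so that the balance turned). The calls over all tested genes turned the same way, from 2579 lower and 2604 higher to 1924 and 1541 with GC offsets. A turn toward lower calls in this or another list is therefore not particular to that list. EIF3D and EIF3K, subunits of the initiation factor eIF3, fell (log2 fold changes -0.87 and -0.94). EIF3E, another eIF3 subunit, rose (log2 fold change 0.72) and so did EIF4E3 (log2 fold change 0.60), a relative of the cap-binding factor, both without overlap. Elongation factors had 4 lower and 4 higher of 12 (0 lower and 3 higher with GC offsets). EEF2, which moves the ribosome along the mRNA, was at 1610, 1690, 2110, 1550 and 1500 CPM in the uninduced libraries and 1230, 1330, 1280, 1130 and 865 CPM in the induced libraries (log2 fold change -0.54 ± 0.17 (SE), adjusted P = 0.0281), with all induced libraries lower, and was not called with GC offsets (adjusted P = 0.467). EEF1A1, which delivers tRNAs, was at 10, 7.31, 10.2, 13.9 and 47.6 CPM in the uninduced libraries and 59.1, 29.6, 55.6, 109 and 223 CPM in the induced libraries (log2 fold change 2.41 ± 0.63 (SE), adjusted P = 0.0187). This gene has 49 annotated pseudogenes and low counts here, and its level here covers only tags assigned to 1 place. Aminoacyl-tRNA synthetases had 9 lower and 5 higher of 37 (7 lower and 4 higher with GC offsets). QARS1 and CARS2 fell without overlap (log2 fold changes -0.50 and -0.86), and TARS1 rose (log2 fold change 0.99) with overlap. EIF3E, EIF4E3 and QARS1 were no longer called with GC offsets, with log2 fold changes of 0.23, 0.10 and -0.30.

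**Figure D3:**
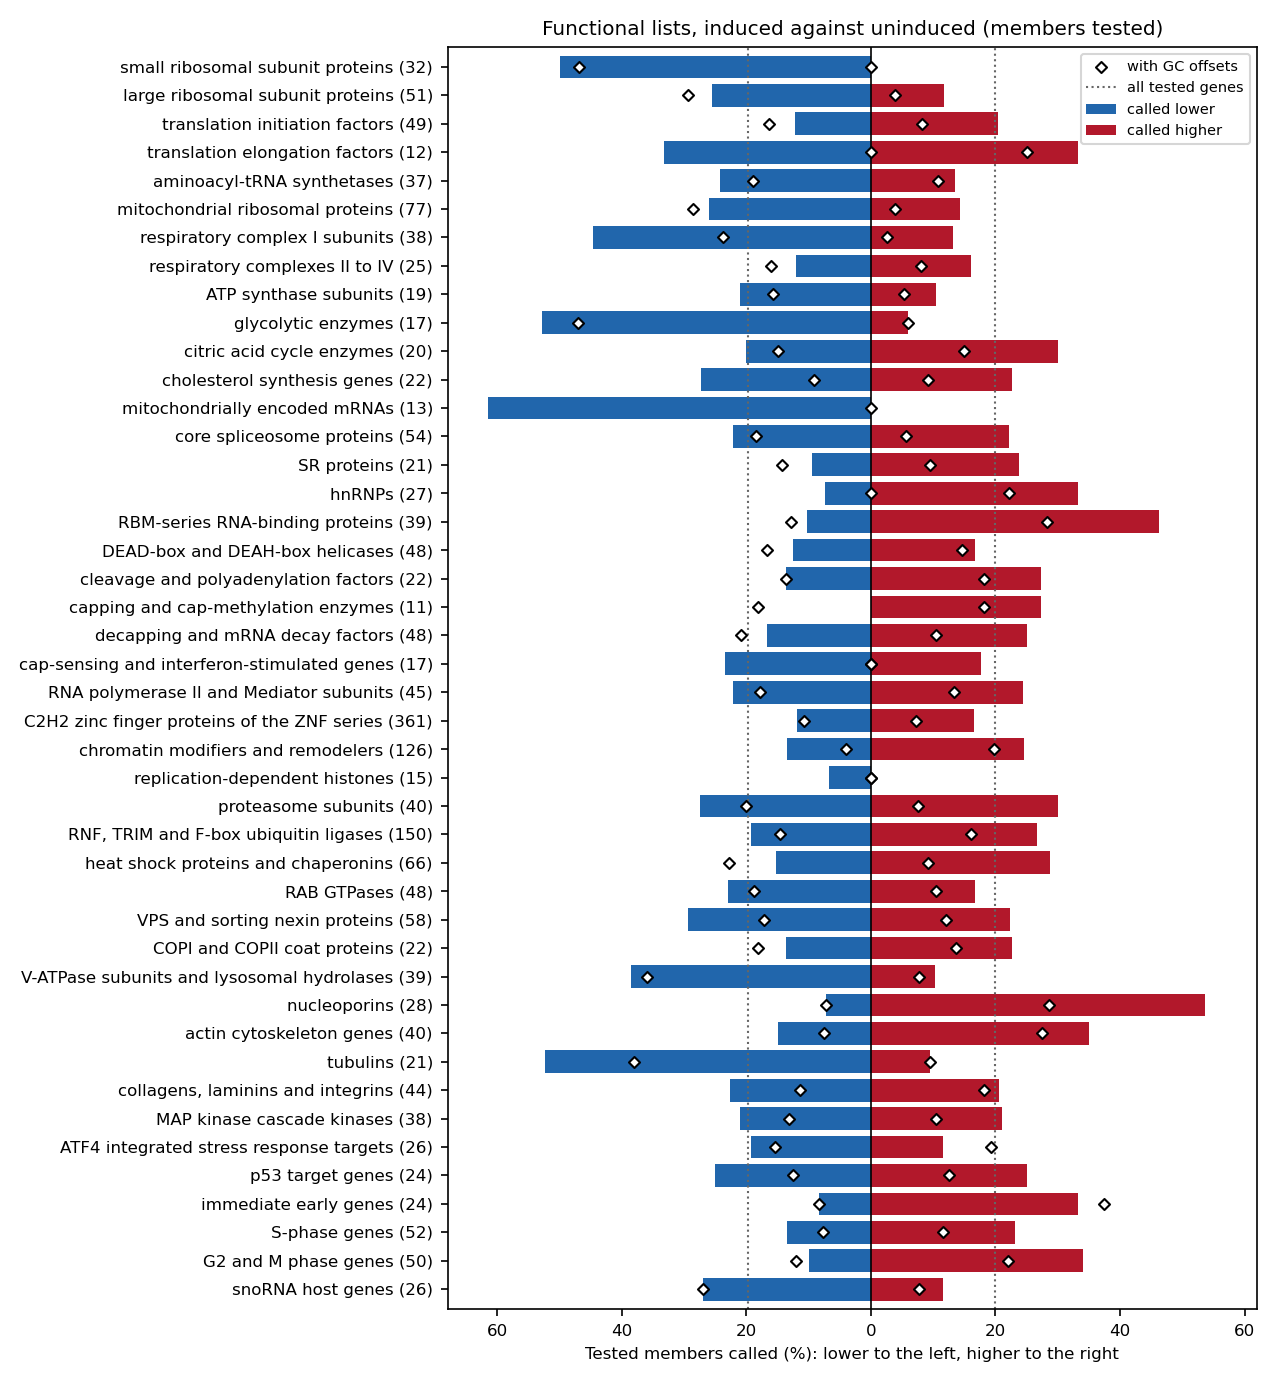
Percent of tested members of 44 functional lists called lower (blue, to the left) or higher (red, to the right) in induced cells, with the number tested in brackets. Dotted lines are the shares over all tested genes (19.8% and 20.0%), and diamonds the shares with GC offsets; small ribosomal subunit, mitochondrially encoded and glycolytic genes lie mainly to the left and nucleoporins and RBM-series genes to the right.

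Mitochondrial and metabolic genes were next. The 13 mRNAs encoded by mitochondrial DNA, which specify core subunits of the respiratory chain, had 8 lower and 0 higher, the highest share of lower calls of the 44 lists, a median of -0.71 and 9 lower and 0 higher with GC offsets. This count was not stable, at 2 to 9 lower and 0 higher with 1 library left out. MT-ND4 was at 2650, 2310, 2070, 1610 and 1200 CPM in the uninduced libraries and 831, 1300, 913, 731 and 1190 CPM in the induced libraries (log2 fold change -0.99 ± 0.24 (SE), adjusted P = 0.0177). MT-ATP6 had a log2 fold change of -1.01 and MT-CO3 one of -0.62. No member was without overlap. Together these mRNAs took 1.11, 0.93, 0.844, 0.746 and 0.611% of the gene counts in the uninduced libraries and 0.512, 0.721, 0.571, 0.463 and 0.762% in the induced libraries. These mRNAs are made inside mitochondria and carry no methylguanosine cap.

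Glycolytic enzymes had 9 lower and 1 higher of 17, a median of -0.64 and 8 lower and 1 higher with GC offsets. For these enzymes, fits with 1 library left out gave 6 to 11 lower and 0 to 2 higher. GAPDH, which oxidises glyceraldehyde phosphate, was at 5810, 6320, 11400, 5170 and 2840 CPM in the uninduced libraries and 2660, 3350, 2750, 2180 and 2240 CPM in the induced libraries (log2 fold change -1.26 ± 0.31 (SE), adjusted P = 0.0177). ALDOA, PFKL, PKM and GPI, which act at the aldolase, phosphofructokinase, pyruvate kinase and isomerase steps, fell (log2 fold changes -1.46, -1.10, -1.08 and -0.85). PFKM, the muscle form of phosphofructokinase, rose from 7.6 ± 5.89 to 21 ± 6.62 CPM (mean ± SD, n = 5 each). PGK1 (-0.22, adjusted P = 0.292) and LDHA (0.13, adjusted P = 0.517) were not called. The list took 1.01, 1.05, 1.42, 0.941 and 0.666% of the gene counts in the uninduced libraries and 0.613, 0.778, 0.651, 0.594 and 0.628% in the induced libraries, and uninduced replicate 5 lay inside the induced range.

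Subunits of respiratory complex I had 17 lower and 5 higher of 38, with a median of -0.26 and 9 lower and 1 higher with GC offsets. Leaving out 1 library gave 3 to 18 lower and 0 to 13 higher. NDUFB9 and NDUFA2 fell without overlap (log2 fold changes -0.58 and -0.49). NDUFB3, a small accessory subunit, went the other way at 3.71, 2.63, 0.722, 4.84 and 59.3 CPM in the uninduced libraries and 161, 6.73, 163, 109 and 116 CPM in the induced libraries (log2 fold change 2.96 ± 1.10 (SE), adjusted P = 0.0497). Here uninduced replicate 5 was more than 10 times any other uninduced library, and induced replicate 2 was close to the uninduced level. NDUFC1 had the same order, with a log2 fold change of 1.33. Complexes II to IV had 3 lower and 4 higher of 25 (4 lower and 2 higher with GC offsets, so that the balance turned), with UQCR10 lower without overlap (log2 fold change -0.36) and COX7A2L higher (log2 fold change 1.45). ATP synthase subunits had 4 lower and 2 higher of 19 (3 lower and 1 higher with GC offsets), among them ATP5MC2 (log2 fold change -0.43) and ATP5MK (log2 fold change 0.91). Mitochondrial ribosomal proteins had 20 lower and 11 higher of 77 (22 lower and 3 higher with GC offsets), and all 5 without overlap were lower, MRPS25 (log2 fold change -0.81) and MRPL43 (log2 fold change -0.64) among them. MRPL33 was at 184, 218, 286, 191 and 656 CPM in the uninduced libraries and 2040, 279, 1740, 1380 and 1280 CPM in the induced libraries (log2 fold change 2.13 ± 0.50 (SE), adjusted P = 0.0175), again with uninduced replicate 5 the highest and induced replicate 2 the lowest of its group. Citric acid cycle enzymes had 4 lower and 6 higher of 20 (3 lower and 3 higher with GC offsets), with CS, citrate synthase, lower without overlap (log2 fold change -0.44) and FH, fumarase, higher (log2 fold change 1.44). Cholesterol synthesis genes had 6 lower and 5 higher of 22 (2 lower and 2 higher with GC offsets), with FDPS at a log2 fold change of -0.78 and HMGCS1 at a log2 fold change of 0.98. NDUFB3, NDUFC1, COX7A2L, ATP5MC2, ATP5MK, FH, FDPS and HMGCS1 were no longer called with GC offsets, with log2 fold changes of 2.70, 1.31, 1.07, -0.23, 0.76, 1.21, -0.55 and 0.58.

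RNA-binding and RNA-processing genes leaned higher. RBM-series proteins, which share an RNA recognition motif, had 4 lower and 18 higher of 39, a median of 0.57 and 5 lower and 11 higher with GC offsets. Their counts with 1 library left out were 0 to 4 lower and 9 to 21 higher. RBM17, a splicing factor, was at 63.7, 79.1, 95.2, 74.6 and 99.5 CPM in the uninduced libraries and 218, 100, 210, 237 and 163 CPM in the induced libraries (log2 fold change 1.17 ± 0.23 (SE), adjusted P = 0.0175). All induced libraries were higher, with induced replicate 2 just above uninduced replicate 5. RBM12B rose (log2 fold change 0.57) without overlap, and RBM3, a cold-inducible protein, and RBM7 (log2 fold changes 1.48 and 1.80) with overlap. RBM39, a splicing coactivator, fell from 232 ± 88.1 to 123 ± 29.8 CPM (mean ± SD, n = 5 each). The hnRNPs, which coat nascent RNA, had 2 lower and 9 higher of 27 and 0 lower and 6 higher with GC offsets. HNRNPH3 was at 68, 62.5, 52.5, 75.8 and 210 CPM in the uninduced libraries and 741, 94.6, 671, 529 and 393 CPM in the induced libraries (log2 fold change 2.37 ± 0.53 (SE), adjusted P = 0.0175), and induced replicate 2 lay below uninduced replicate 5. HNRNPU and HNRNPA1 rose (log2 fold changes 1.42 and 1.02), and PTBP1, a splicing repressor, fell (log2 fold change -0.53). RBM12B and PTBP1 were no longer called with GC offsets, with log2 fold changes of 0.11 and -0.22.

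Splicing and 3′ end formation were more even. Core spliceosome proteins had 12 lower and 12 higher of 54 (10 lower and 3 higher with GC offsets). Both shares were 22.2%, near those of all tested genes. SNRPD2, an Sm protein, fell without overlap (log2 fold change -0.59), and SF3B1, which recognises the branch point, rose (log2 fold change 0.48) without overlap, from 31.6 ± 1.65 to 44 ± 2.75 CPM (mean ± SD, n = 5 each). CDC5L rose (log2 fold change 0.47), a change that became -0.01 with GC offsets. SR proteins had 2 lower and 5 higher of 21 (3 lower and 2 higher with GC offsets, so that the balance turned), with SRSF5 at a log2 fold change of -0.68 and TRA2B at a log2 fold change of 0.64. Helicases of the DEAD-box and DEAH-box families had 6 lower and 8 higher of 48 (8 lower and 7 higher with GC offsets, so that the balance turned). DHX9, which unwinds structured RNA, was at 13.5, 16.8, 14.3, 16.8 and 23.2 CPM in the uninduced libraries and 49.4, 26, 49.1, 53.3 and 30.2 CPM in the induced libraries (log2 fold change 1.30 ± 0.24 (SE), adjusted P = 0.0175), and all induced libraries lay above the uninduced range. DDX39A, an mRNA export helicase, fell without overlap (log2 fold change -0.95). Cleavage and polyadenylation factors had 3 lower and 6 higher of 22 (3 lower and 4 higher with GC offsets), with SYMPK, a scaffold of the complex, at a log2 fold change of -1.18 and PABPN1, the nuclear poly(A)-binding protein, at a log2 fold change of 1.06. The groups overlapped for both. PABPN1 was at 71.1, 52.4, 23, 93.8 and 158 CPM in the uninduced libraries and 194, 122, 170, 166 and 178 CPM in the induced libraries. It was called in only 2 of the 10 fits with 1 library left out. In parental cells its log2 fold change with doxycycline was -1.15 ± 0.50 (SE, n = 3 each). SF3B1 and TRA2B were no longer called with GC offsets, with log2 fold changes of 0.10 and 0.27.

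Factors that remove caps and degrade mRNA had 8 lower and 12 higher of 48 (10 lower and 5 higher with GC offsets, so that the balance turned). XRN1, the cytoplasmic 5′ to 3′ exonuclease, was at 8.33, 7.31, 8.84, 7.55 and 10.3 CPM in the uninduced libraries and 13.1, 13.8, 12.7, 15.3 and 12.6 CPM in the induced libraries (log2 fold change 0.67 ± 0.15 (SE), adjusted P = 0.0175), with no overlap. EDC3, an enhancer of decapping, fell (log2 fold change -0.75) without overlap, although uninduced replicate 5 and induced replicate 5 were nearly equal at 8.2 and 8.19 CPM. With GC offsets XRN1 was not called (adjusted P = 0.325) and EDC3 was (adjusted P = 0.0411). Genes that sense uncapped or unmethylated RNA or respond to interferon had 4 lower and 3 higher of 17, and none with GC offsets. RIGI, a sensor of RNA with 5′ triphosphates, was at 2.08, 1.46, 1.89, 2.03 and 2.04 CPM in the uninduced libraries and 4.18, 3.01, 3.74, 3.04 and 2.85 CPM in the induced libraries (log2 fold change 0.81 ± 0.19 (SE), adjusted P = 0.0175), with no overlap between the groups at low levels. ISG15, IFI6 and OAS3, which interferon induces, were lower (log2 fold changes -0.82, -0.87 and -0.46), and MAVS, the adapter downstream of RIGI (log2 fold change -0.64). RIGI, ISG15, IFI6, OAS3 and MAVS were no longer called with GC offsets, with log2 fold changes of 0.41, -0.32, -0.62, -0.28 and -0.56.

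Transcription and chromatin genes gave both directions. Subunits of RNA polymerase II and Mediator had 10 lower and 11 higher of 45 (8 lower and 6 higher with GC offsets, so that the balance turned). Their shares, 22.2% and 24.4%, were near those of all tested genes. MED24, a Mediator subunit, was at 295, 312, 454, 280 and 178 CPM in the uninduced libraries and 131, 160, 135, 121 and 89.9 CPM in the induced libraries (log2 fold change -1.26 ± 0.24 (SE), adjusted P = 0.0175). All induced libraries lay below the uninduced ones, whose lowest was again replicate 5. POLR2E, shared by all 3 nuclear polymerases, fell without overlap (log2 fold change -0.94), and MED13, of the Mediator kinase module, rose (log2 fold change 0.50) without overlap. The C2H2 zinc finger genes of the ZNF series had 43 lower and 60 higher of 361 (39 lower and 26 higher with GC offsets, so that the balance turned). ZNF346, which binds double-stranded RNA, fell (log2 fold change -1.11) and ZNF488 (log2 fold change -0.90), while ZNF131 and ZNF639 rose (log2 fold changes 0.58 and 0.40), all without overlap. Chromatin modifiers and remodelers had 17 lower and 31 higher of 126, and 5 lower and 25 higher with GC offsets. KDM1A, a histone H3 lysine demethylase, was at 12.1, 13.4, 13.2, 16.5 and 23 CPM in the uninduced libraries and 36.1, 27.5, 35.1, 38.1 and 37.6 CPM in the induced libraries (log2 fold change 1.16 ± 0.20 (SE), adjusted P = 0.0175), and every induced library exceeded the highest uninduced one. ASXL2 rose (log2 fold change 0.49) and ARID3B fell (log2 fold change -0.88) without overlap. Among replication-dependent histones, whose mRNAs mostly lack a poly(A) tail, 1 of 15 was called, H4C11 (log2 fold change -0.70). MED13, ZNF131, ZNF639, ASXL2 and H4C11 were no longer called with GC offsets, with log2 fold changes of 0.04, 0.19, 0.02, 0.13 and -0.29.

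Nucleoporins were the list with the highest share of higher calls. They form the channel through which mRNA leaves the nucleus, and had 2 lower and 15 higher of 28, a median of 0.48 and 2 lower and 8 higher with GC offsets. Leaving out single libraries gave 0 to 3 lower and 5 to 17 higher. Together they took 0.143, 0.135, 0.112, 0.158 and 0.202% of the gene counts in the uninduced libraries and 0.259, 0.186, 0.245, 0.244 and 0.259% in the induced libraries. Those with the largest rises had strongly split libraries. SEH1L was at 15.4, 14.1, 11.3, 19.6 and 162 CPM in the uninduced libraries and 478, 25.7, 388, 342 and 367 CPM in the induced libraries (log2 fold change 2.84 ± 0.89 (SE), adjusted P = 0.0289). Uninduced replicate 5 stood more than 8 times above the other uninduced libraries and induced replicate 2 far below the other induced ones. NUP37 and NUP35 shared this order, with log2 fold changes of 2.50 and 2.53. NUP98 rose (log2 fold change 1.46). NUP58 and NUP160 rose without overlap (log2 fold changes 0.55 and 0.49), and RAE1, an mRNA export factor that binds NUP98, fell (log2 fold change -0.76). NUP58 and NUP160 were no longer called with GC offsets, with log2 fold changes of 0.19 and 0.17.

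Protein turnover and folding showed no common direction. Proteasome subunits had 11 lower and 12 higher of 40 (8 lower and 3 higher with GC offsets, so that the balance turned), and all 4 without overlap were lower, PSMA7 (log2 fold change -0.47) and PSMB7 (log2 fold change -0.88) among them, while PSMA3 rose (log2 fold change 1.70) with overlap. Ubiquitin ligases of the RNF, TRIM and F-box series had 29 lower and 40 higher of 150 (22 lower and 24 higher with GC offsets). RNF220 and RNF123 fell without overlap (log2 fold changes -0.92 and -0.92), and FBXO9 and FBXO21 rose without overlap (log2 fold changes 0.37 and 0.45). Heat shock proteins and chaperonins had 10 lower and 19 higher of 66, which turned to 15 lower and 6 higher with GC offsets. HSPA5, the Hsp70 of the endoplasmic reticulum, was at 1160, 1090, 1250, 938 and 741 CPM in the uninduced libraries and 484, 728, 602, 571 and 513 CPM in the induced libraries (log2 fold change -0.84 ± 0.18 (SE), adjusted P = 0.0175), and all induced libraries were lower. DNAJC25 and DNAJC13, J-domain cochaperones, rose without overlap (log2 fold changes 0.76 and 0.60). PSMA7, PSMA3, FBXO9, FBXO21 and DNAJC13 were no longer called with GC offsets, with log2 fold changes of -0.39, 1.37, 0.09, 0.23 and 0.25.

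Membrane traffic and lysosome genes leaned lower in the lysosome. V-ATPase subunits and lysosomal hydrolases had 15 lower and 4 higher of 39 and 14 lower and 3 higher with GC offsets, with a median of -0.25. Across fits with 1 library left out there were 5 to 18 lower and 3 to 8 higher. CTSA, a serine carboxypeptidase, was at 100, 99.7, 164, 79.9 and 50.4 CPM in the uninduced libraries and 28.9, 46.6, 45.3, 35.3 and 37.4 CPM in the induced libraries (log2 fold change -1.35 ± 0.27 (SE), adjusted P = 0.0175), with no overlap. PPT1 and CTSB also fell without overlap (log2 fold changes -0.56 and -0.54), and the aspartic protease CTSD and the pump subunit ATP6V1F (log2 fold changes -1.01 and -1.45) with overlap. CTSL, a cysteine protease, rose with the split order already seen, at 9.6, 7.31, 5.67, 8.13 and 26.5 CPM in the uninduced libraries and 60.4, 10.8, 78, 58.3 and 58.6 CPM in the induced libraries (log2 fold change 2.21 ± 0.53 (SE), adjusted P = 0.0175). Induced replicate 2 was in the uninduced range. RAB GTPases, which mark vesicles, had 11 lower and 8 higher of 48 (9 lower and 5 higher with GC offsets), with RAB7B (log2 fold change -1.04) and RAB22A (log2 fold change 0.68). VPS and sorting nexin proteins had 17 lower and 13 higher of 58 (10 lower and 7 higher with GC offsets), with VPS33B (log2 fold change -0.69), VPS36 (log2 fold change 0.59) and VPS13D (log2 fold change 0.97) all without overlap. Coat proteins of COPI and COPII had 3 lower and 5 higher of 22 (4 lower and 3 higher with GC offsets, so that the balance turned), with COPZ1 lower (log2 fold change -0.50) and COPB2 higher (log2 fold change 0.63), both without overlap. CTSD, RAB22A, VPS33B, VPS36 and COPB2 were no longer called with GC offsets, with log2 fold changes of -0.53, 0.29, -0.58, 0.16 and 0.33.

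In the cytoskeleton, tubulins had 11 lower and 2 higher of 21, with a median of -0.53 and 8 lower and 2 higher with GC offsets. Fits without single libraries gave 5 to 12 lower and 0 to 5 higher. TUBA1C, an alpha tubulin, was at 11500, 11300, 7200, 10800 and 9290 CPM in the uninduced libraries and 5980, 9240, 6600, 6350 and 6510 CPM in the induced libraries (log2 fold change -0.53 ± 0.19 (SE), adjusted P = 0.0431). Its groups overlapped, since uninduced replicate 3 and induced replicate 2 each lay in the range of the other group. TUBB and TUBB6, beta tubulins, fell (log2 fold changes -0.94 and -0.82), and TUBA1A rose (log2 fold change 1.37), all with overlap. TUBB was called in only 2 of the 10 fits with 1 library left out. Actin cytoskeleton genes leaned the other way, with 6 lower and 14 higher of 40 and 3 lower and 11 higher with GC offsets. ACTR2, a subunit of the Arp2/3 complex, rose without overlap (log2 fold change 0.63), from 76.4 ± 3.2 to 118 ± 19.9 CPM (mean ± SD, n = 5 each), and the myosin light chain MYL9 fell without overlap (log2 fold change -0.74). Collagens, laminins and integrins had 10 lower and 9 higher of 44 (5 lower and 8 higher with GC offsets, so that the balance turned). As shares these were 22.7% and 20.5%, near those of all tested genes. The integrin chain ITGA3 was at 116, 111, 154, 99.1 and 74.2 CPM in the uninduced libraries and 40.3, 66.7, 41.4, 47.9 and 55.6 CPM in the induced libraries (log2 fold change -1.14 ± 0.21 (SE), adjusted P = 0.0175), with every induced library below the lowest uninduced one. ITGA5, the fibronectin receptor chain, fell (log2 fold change -1.17) without overlap, and COL6A3 rose (log2 fold change 1.57) with overlap. ACTR2 and MYL9 were no longer called with GC offsets, with log2 fold changes of 0.13 and -0.33.

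Among signalling and stress genes, MAP kinase cascade kinases had 8 lower and 8 higher of 38 (5 lower and 4 higher with GC offsets). Each share was 21.1%, near those of all tested genes. MAP2K2 was on the lower side (log2 fold change -1.02). Targets of ATF4, the factor of the integrated stress response, had 5 lower and 3 higher of 26 (4 lower and 5 higher with GC offsets, so that the balance turned). SESN2 fell without overlap (log2 fold change -0.64), and MTHFD2 rose (log2 fold change 1.12). Targets of p53 had 6 lower and 6 higher of 24 (3 lower and 3 higher with GC offsets). PHLDA3 and FDXR fell without overlap (log2 fold changes -1.22 and -0.96), and RRM2B, a ribonucleotide reductase subunit, rose (log2 fold change 1.27). Immediate early genes, which respond to serum and stress within minutes, had 2 lower and 8 higher of 24 and 2 lower and 9 higher with GC offsets, with a median of 0.60. The most abundant of them went the opposite way. IER3 was at 13300, 13800, 21400, 12300 and 6860 CPM in the uninduced libraries and 5620, 7850, 5660, 5740 and 5360 CPM in the induced libraries (log2 fold change -1.16 ± 0.26 (SE), adjusted P = 0.0175). Uninduced replicate 5 was the lowest of its group and below induced replicate 2. BTG1, an antiproliferative gene, fell (log2 fold change -0.78). Called members that rose were at low levels, MYC at 1.07, 0.877, 0.667, 1.31 and 7.25 CPM in the uninduced libraries and 14.4, 1.6, 17.8, 11.9 and 22.1 CPM in the induced libraries (log2 fold change 2.57 ± 0.75 (SE), adjusted P = 0.0234). KLF10, KLF2, ZFP36 and NR4A1 had log2 fold changes of 2.87, 2.99, 2.78 and 2.71, with induced replicate 2 in or below the uninduced range. KLF6 rose without overlap, from 25.5 ± 1.07 to 35.8 ± 3.37 CPM (mean ± SD, n = 5 each) (log2 fold change 0.49 ± 0.13 (SE), adjusted P = 0.018). Because IER3 dominated the counts, the list took 1.45, 1.46, 2, 1.4 and 0.981% of the gene counts in the uninduced libraries and 0.927, 1.08, 0.921, 0.977 and 0.979% in the induced libraries, so that its median and its summed share moved in opposite directions. SESN2, RRM2B and KLF6 were no longer called with GC offsets, with log2 fold changes of -0.27, 0.75 and 0.30.

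Among cell cycle genes, those of the G2 and M phases leaned higher. They had 5 lower and 17 higher of 50, with a median of 0.36 and 6 lower and 11 higher with GC offsets. Without single libraries these numbers were 1 to 7 lower and 9 to 22 higher. Together they took 0.52, 0.497, 0.447, 0.522 and 0.527% of the gene counts in the uninduced libraries and 0.628, 0.607, 0.614, 0.666 and 0.666% in the induced libraries, with no overlap between the groups. BUB1, a spindle checkpoint kinase, was at 16.6, 15.4, 16, 17.3 and 22 CPM in the uninduced libraries and 43.9, 27.2, 42.6, 46.1 and 37.6 CPM in the induced libraries (log2 fold change 1.18 ± 0.18 (SE), adjusted P = 0.0175), and all induced libraries lay above the uninduced range. SPC25, of the outer kinetochore, rose without overlap (log2 fold change 0.70), and the condensin subunit NCAPH, the cytokinesis scaffold ANLN and the kinesin KIF20A (log2 fold changes 2.21, 1.59 and 1.55) with overlap. Of the 5 that fell, PTTG1, the securin, was without overlap at 441, 438, 436, 409 and 318 CPM in the uninduced libraries and 270, 307, 288, 237 and 269 CPM in the induced libraries (log2 fold change -0.57 ± 0.14 (SE), adjusted P = 0.0177), and CDC20 and TPX2 fell (log2 fold changes -0.77 and -0.83) with overlap. S-phase genes had 7 lower and 12 higher of 52 (4 lower and 6 higher with GC offsets). Their share of higher calls, 23.1%, was near that of all genes, and their median was 0.05 beside 0.04. The DNA ligase LIG1 fell (log2 fold change -1.0), and ATAD2 and the polymerase subunit POLD3 rose without overlap (log2 fold changes 0.51 and 0.66). snoRNA host genes, whose spliced RNAs often carry a TOP start, had 7 lower and 3 higher of 26 (7 lower and 2 higher with GC offsets). SNHG29 and SNHG16 fell without overlap (log2 fold changes -0.82 and -0.40), and ZFAS1 rose (log2 fold change 1.63) with overlap. SPC25, ATAD2, POLD3 and ZFAS1 were no longer called with GC offsets, with log2 fold changes of 0.30, 0.06, 0.35 and 1.52.

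Of the 44 lists, 18 had more lower than higher calls, 22 more higher and 4 equal numbers. Under total counts scaling 5 lists had more lower calls. Small ribosomal subunit, mitochondrially encoded, glycolytic and tubulin genes kept negative medians on that scale too (-0.22, -0.46, -0.41 and -0.3), and the medians of complex I and lysosomal genes went to -0.01 and -0.04, beside 0.28 for all genes.

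The genes called without overlap at the highest levels gave a further view. On the lower side these were, from the most abundant, RPL27A, RPS12, RPS20, SFN, RPS10, RPL8, PSMA7, SUMO3, EEF2 and KDELR1. SFN, the 14-3-3 sigma protein, was at 5220, 5660, 8920, 4350 and 3110 CPM in the uninduced libraries and 1780, 2930, 1870, 1730 and 1820 CPM in the induced libraries (log2 fold change -1.43 ± 0.27 (SE), adjusted P = 0.0175). It was among the 5 largest falls of genes with a mean of at least 10 CPM and had its lowest uninduced value in replicate 5 and its highest induced value in replicate 2. SUMO3, a ubiquitin-like modifier, was at 1890, 2010, 2280, 1800 and 1350 CPM in the uninduced libraries and 1210, 1290, 1110, 975 and 1190 CPM in the induced libraries (log2 fold change -0.69 ± 0.17 (SE), adjusted P = 0.0175). KDELR1, the receptor that returns resident proteins to the endoplasmic reticulum, was at 1780, 1700, 1580, 1300 and 979 CPM in the uninduced libraries and 627, 919, 727, 677 and 919 CPM in the induced libraries (log2 fold change -0.92 ± 0.20 (SE), adjusted P = 0.0175). In both, every induced library was lower, and both were also called with GC offsets (adjusted P = 0.0274 each).

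On the higher side, those reported here were NONO, LMNB1, RNMT, SVIP, KIFC1, C11orf58, ATAD2, RBM17 and SPIN1. NONO, a paraspeckle protein, was at 236, 236, 224, 257 and 309 CPM in the uninduced libraries and 375, 329, 380, 389 and 471 CPM in the induced libraries (log2 fold change 0.62 ± 0.15 (SE), adjusted P = 0.0175). For this gene, uninduced replicate 5 was the highest uninduced library and induced replicate 2 the lowest induced one, with a gap between them. LMNB1, lamin B1, and KIFC1, a mitotic kinesin, rose (log2 fold changes 1.09 and 1.16), with uninduced libraries from 58.4 to 272 and from 26.6 to 155 CPM. SVIP and SPIN1 rose (log2 fold changes 0.47 and 0.48) and C11orf58 (log2 fold change 0.80). SVIP turned to -0.12 with GC offsets, and its transcript had a GC content of 33.8%. C11orf58, ATAD2 and SPIN1 were no longer called with GC offsets, with log2 fold changes of 0.31, 0.06 and 0.10.

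**Figure D4:**
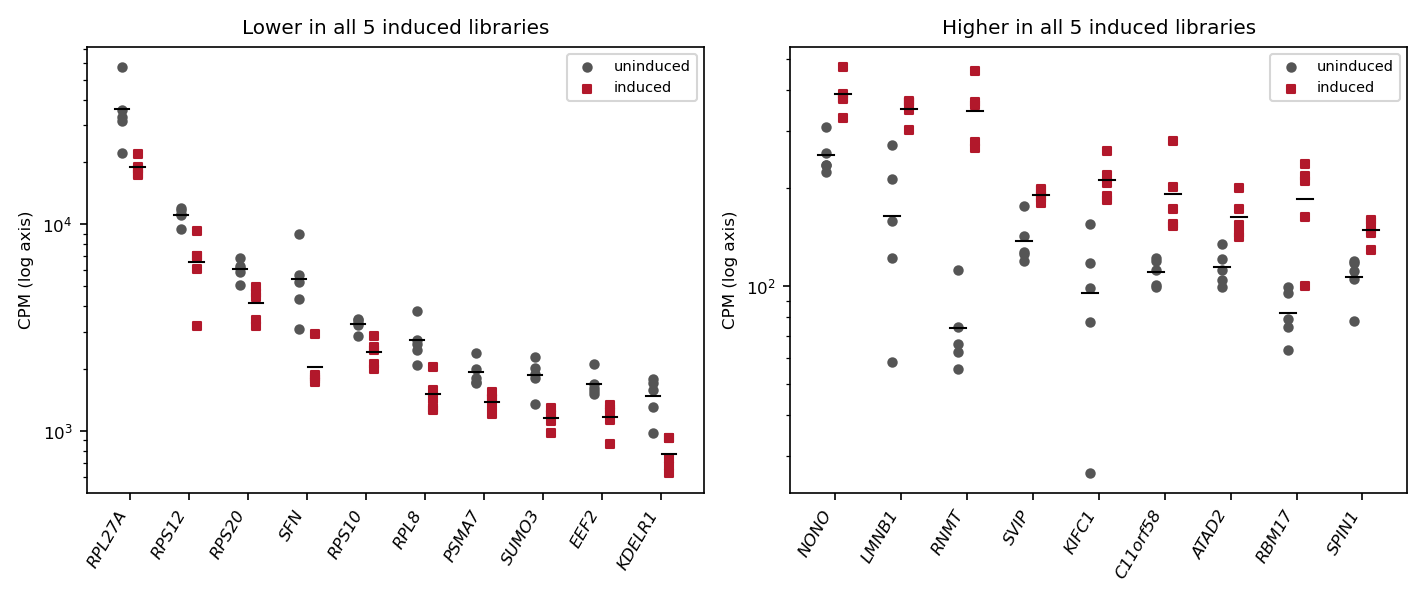
CPM on a log axis of the abundant called genes without overlap named above, on the lower side (left) and on the higher side (right), with 1 point for each of the 5 uninduced (grey circles) and 5 induced (red squares) libraries and black lines at the group means. For each gene the 5 red points lie all below or all above the grey ones, by narrow margins in some, such as 22000 against 21800 CPM for RPL27A.

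Among called genes without overlap and with a mean of at least 10 CPM, the largest falls besides SFN were PRAF2, JMJD7-PLA2G4B, GALNT8 and RASL10B, with log2 fold changes of -1.48, -1.43, -1.41 and -1.36. PRAF2, a membrane protein, was at 77.1, 91.2, 165, 72.2 and 42.9 CPM in the uninduced libraries and 28.5, 41.3, 35.1, 26 and 29.6 CPM in the induced libraries. All 4 had their highest level in uninduced replicate 3. Within the same limits, the largest rises besides RNMT were ATXN2L, C16orf87, UBXN2A and SRBD1, with 3.90, 1.64, 1.54 and 1.39. ATXN2L, a stress granule protein, was at 2.29, 2.1, 2.56, 2.08 and 3.34 CPM in the uninduced libraries and 59.7, 3.72, 50.2, 16.4 and 56.2 CPM in the induced libraries (log2 fold change 3.90 ± 0.62 (SE), adjusted P = 0.0175). Its induced libraries differed among themselves by more than 10-fold, and induced replicate 2 lay close to the uninduced range. UBXN2A, an adapter of the p97 ATPase, was at 20.5, 23, 29.6, 26.3 and 33.1 CPM in the uninduced libraries and 88.1, 33.5, 81.1, 84.5 and 98 CPM in the induced libraries (log2 fold change 1.54 ± 0.26 (SE), adjusted P = 0.0175), where induced replicate 2 exceeded uninduced replicate 5 by a narrow margin.

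The parental line served as the control for doxycycline. Its 6 libraries held between 1473286 and 3214808 gene counts and were sequenced on another instrument, so that only the response to doxycycline was compared between lines. Parental values and differences between lines come from a fit of all 16 libraries, with its own filter and scaling factors. Values given for the transgene line come from the fit of its 10 libraries, so the differences are not exact subtractions. The difference of the 2 responses was called for 365 of 12265 genes (2.98%). That count was not stable, ranging from 0 to 2290 as single libraries of either line were left out, and the single genes below share that limit. RNMT had a log2 fold change of -0.33 ± 0.31 (SE, n = 3 each) in parental cells, and the responses differed by 2.43 (adjusted P = 0.0258). HSPA5 had 1.30 ± 0.30 (SE, n = 3 each) in parental cells against -0.84 in the 10-library fit of the transgene line. Its difference between lines in the 16-library fit of edgeR was -2.28 (adjusted P = 0.0258). Parental HSPA5 levels were 262, 435 and 384 CPM without and 946, 735 and 979 CPM with doxycycline. MED24, with 1.30 ± 0.42 (SE, n = 3 each) in parental cells, differed by -2.71 (adjusted P = 0.0372), and PTTG1, with 1.16 ± 0.26 (SE, n = 3 each), by -1.88 (adjusted P = 0.029). SUMO3, KDELR1 and KDM1A also differed, by -1.67 (adjusted P = 0.0408), -1.70 (adjusted P = 0.045) and 1.64 (adjusted P = 0.0372). For NONO and RPL27A the difference was not called (adjusted P = 0.389 and 0.151). Neither was it for RPS12, RPS20, SFN, RPS10, RPL8, PSMA7, EEF2 and ATAD2 (edgeR, adjusted P from 0.0531 to 0.276). Of the abundant genes listed above on the lower side, only SUMO3 and KDELR1 were called.

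**Figure D5:**
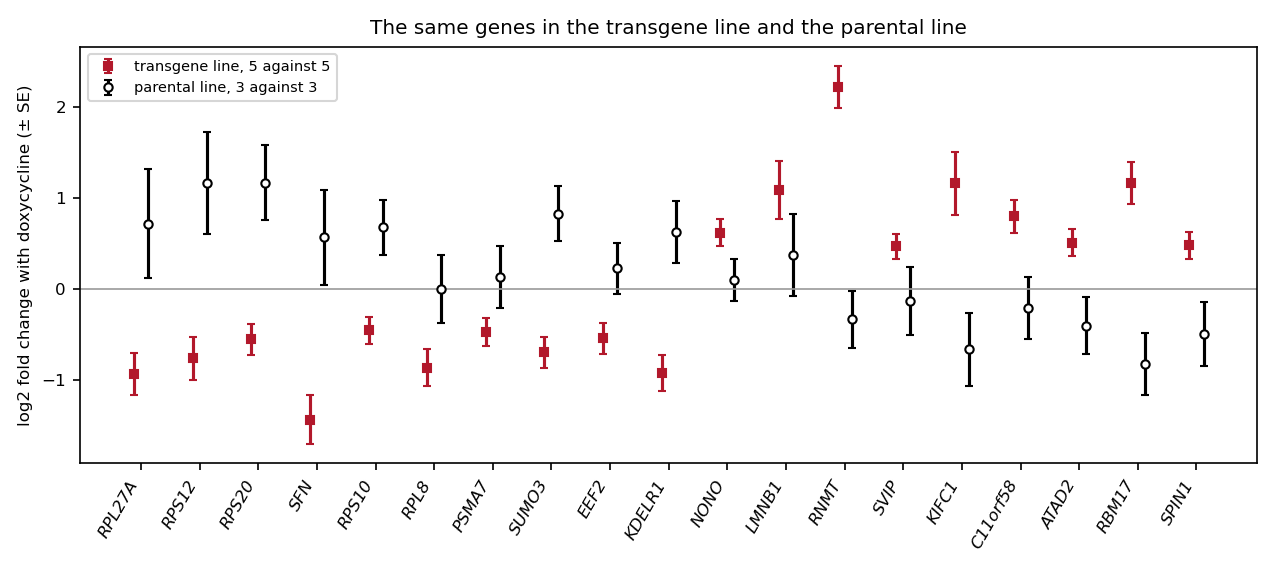
Log2 fold change with doxycycline (± SE from edgeR) of the abundant genes without overlap named above, in the transgene line (red squares, 5 induced against 5 uninduced) and in the parental line (open circles, 3 against 3). RNMT is at 2.22 in transgene cells and -0.33 in parental cells, and the parental error bars are wider than those of the transgene line for every gene drawn.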

How the data were processed

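Libraries were made from cytoplasmic RNA with the QuantSeq 3′ REV kit. Per Ensembl gene, the authors deposited raw counts from the Lexogen QuantSeq REV pipeline for GRCh38. Which aligner and annotation release were used, whether strand was considered and how duplicates were treated is not given in the sources used here. Entries that are not genes were left out. For each gene count, 0.561 to 1.33 tags of the transgene line aligned to more than 1 place and were not counted on genes, so genes with close copies keep part of their tags. Among same-group pairs of the transgene line, none agreed within sampling noise: their lowest chi-square per degree of freedom was 4.76. Other pairs were not compared. Same-group libraries are labelled as replicates, and P values measure the spread between them.

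The test was edgeR's quasi-likelihood F test (edgeR 4.0.16 under R 4.3.3) on genes whose base mean exceeded 20, after TMM scaling. P values were adjusted by the method of Benjamini and Hochberg, and a gene was called where the result was below 0.05. The difference of the responses of both lines was an interaction term over all 16 libraries. Log2 values used a prior count of 2. DESeq2 1.42.0 and sva 3.50.0 served for alternatives, as did total counts, other filters, the replicate block, GC offsets (lowess span 0.5) and leaving out each library, and Python 3.11.15 for summaries. The fit was tested on simulated data. GENCODE release 44 named 56104 of 60107 genes and gave the canonical transcripts. Means are of CPM with the SD over libraries.

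The members and gene lists were chosen with earlier results of these data known. Genes were named by rule: RNMT, up to 2 called members without overlap per list and direction by highest mean CPM or else the called member with the highest mean CPM, the 10 most abundant called genes without overlap in each direction, and the 5 largest changes in each direction among those with a mean of at least 10 CPM. Some genes that the rule named are not reported here. A further 41 called genes, all of them list members, were chosen after their values were seen.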

Additional observations from a re-analysis of the deposited data

Results flagged for a closer look

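In groups of 5 libraries, a library was singled out where its gap to the nearest other library exceeded 0.71 of the group's range, which chance gives in about 1 of 20 groups. Nearly all such cases among the genes described above involved uninduced replicate 5 or induced replicate 2.

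Uninduced replicate 5 stood above the other uninduced libraries for EEF1A1 (47.6 CPM), TARS1 (138), MRPL33 (656), NDUFC1 (126), ATP5MK (253), PFKM (18), TRA2B (181), HNRNPA1 (592), PSMA3 (217), CTSL (26.5), TUBA1A (120), COL6A3 (61.2), BUB1 (22) and ZFAS1 (268). The same held for NUP98 (25.3 CPM), NUP37 (27.4), SEH1L (162), MYC (7.25), KLF2 (4.12), KLF10 (17), NR4A1 (1.3), KIF20A (44.8), ANLN (26), NDUFB3 (59.3), HNRNPH3 (210), RBM3 (396) and RBM7 (4.69). It stood below them for EIF3D (911 CPM) and PTTG1 (318). In each of these genes it lay on the side of the induced libraries.

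Induced replicate 2 stood above the other induced libraries for PTBP1 (232 CPM), ZNF346 (73.6), TUBA1C (9240), SESN2 (71.7), IER3 (7850), LIG1 (331), SFN (2930), RPSA (80.2), ALDOA (244), GPI (193), TPX2 (283) and ATP6V1F (192). It stood below them for RPL23 (1100 CPM), COX7A2L (156), KDM1A (27.5), UBXN2A (33.5), NUP37 (5.69), KLF10 (5.27), KIF20A (19.5) and NCAPH (23.8), on the side of the uninduced libraries in each. The exceptions to this pattern were MYL9, with uninduced replicate 3 high at 177 CPM, and SPC25, with induced replicate 4 high at 109 CPM.

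Measures of whole libraries gave the same 2 names. The score of induced replicate 2 on the first principal component was -13.5, its share of counts in the highest abundance tier was 83.1%, and its nucleoporin share was 0.186%. Uninduced replicate 5 had 82.6% of its counts in the highest abundance tier, and its highest tier minus its lowest tier was -0.08 on the log2 scale.

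The response to doxycycline differed between the transgene line and the parental line by edgeR's test of the difference (adjusted P below 0.05) for 26 of the genes described. The difference of log2 fold changes, transgene line minus parental line, was above 0 for ATXN2L (6.48), NCAPH (2.73), RNMT (2.43), RBM7 (2.07), RBM17 (1.85) and KDM1A (1.64). It was below 0 for JMJD7-PLA2G4B (-3.04), MED24 (-2.71), POLR2E (-2.3), HSPA5 (-2.28), RPS4X (-2.15), EIF3K (-1.99), RAE1 (-1.98), SNHG29 (-1.97), TUBB6 (-1.92), EIF3D (-1.91), ZNF346 (-1.9), RNF220 (-1.88), PTTG1 (-1.88), KDELR1 (-1.7), SUMO3 (-1.67), MRPL43 (-1.54), NDUFB9 (-1.51), OAS3 (-1.5), CS (-1.46) and RPSA (-1.22). These differences include the parental change and are not the change of the transgene line alone. For some genes the parental change was opposite and larger in size. Examples are POLR2E (1.22 parental, -0.94 transgene line), RAE1 (1.09, -0.76), TUBB6 (0.96, -0.82), OAS3 (0.89, -0.46), CS (0.88, -0.44) and NDUFB9 (0.78, -0.58). For RNMT it was smaller (-0.33, 2.22). The number of called differences fell to 0 without any of several single libraries, as given below.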

How the results depend on the processing

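RNMT was called with all alternatives, with log2 fold changes from 1.87 (replicate block with GC offsets) to 2.45 (total counts). The counts of calls, 2579 lower and 2604 higher, became 1401 and 4022 with total counts, 1924 and 1541 with GC offsets, and 0 and 1 with 1 surrogate variable. Leaving out single libraries gave 929 to 3555 lower and 916 to 4049 higher calls: without uninduced replicates 1, 2, 4 and 5 these were 1496 and 1053, 1244 and 925, 1908 and 1385, and 3555 and 4049, and without induced replicates 1, 3, 4 and 5 they were 953 and 916, 1194 and 1111, 929 and 961, and 2008 and 1724. The counts without overlap, 550 lower and 402 higher, became 201 and 977 with total counts and ranged from 559 to 2873 and from 423 to 3085 with 1 library left out, and 611 were higher without induced replicate 5. A smaller group makes overlap less likely.

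The 365 differences between lines became 1489 with DESeq2, 150 without a filter and 222 with the replicate block, and ranged from 0 to 2290 with 1 library left out. None were called without uninduced replicates 1, 2 or 4, induced replicates 1, 3 or 4, or replicate 1 of either parental group by edgeR, 6 without uninduced replicate 3, 4 without induced replicate 5 and 18 without treated parental replicate 3. There were 2290 without uninduced replicate 5, 1170 without induced replicate 2, 119 and 686 without untreated parental replicates 2 and 3, and 1647 without treated parental replicate 2. The highest abundance tier had 543 lower and 533 higher calls with total counts and 170 higher with GC offsets. The lowest tier had 120 lower calls with total counts, 180 lower without a filter and 306 higher with GC offsets. Lists with more lower than higher calls numbered 18, and 5 with total counts, 9 with the replicate block and 0 with 1 surrogate variable. Of the 88 counts of calls in single lists, lower and higher for each of 44, those that moved by over 1.5 times numbered 68, 76, 30, 51 and 35 without uninduced replicates 1 to 5 and 79, 12, 74, 79 and 35 without induced replicates 1 to 5, against 41 with GC offsets, 59 with total counts and 84 with 1 surrogate variable. The large ribosomal subunit had 9 lower and 10 higher calls with the replicate block. CDC5L turned to -0.01 with GC offsets, with and without the replicate block, and SVIP to -0.12 with GC offsets and -0.13 with both. The causes were not tested.

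Same-numbered libraries of the 2 groups had correlations of -0.246, 0.625, -0.373, -0.112 and 0.236 between their deviations. Their mean was 0.026, against -0.049 for differently numbered libraries. These few values cannot decide whether the numbers pair the libraries, and the main fit used no pairing. With the replicate block there were 2260 lower and 2928 higher calls, and 113 of the 127 genes named by rule were called. Of these 127, 62 were called in all 10 fits with 1 library left out and 76 with GC offsets, and all 127 kept their sign with total counts. The parental depth limits the comparison between lines.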
